A study of Mus musculus with 8 samples.

Results

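The promoters of 51 homeobox genes that lie outside the Hox clusters were examined in cultured mouse germline stem (GS) cells. The genes were chosen by symbol, from the Nkx, Lhx, Pax, Dlx, Irx, Msx, Otx, Emx, Gbx, Pitx, Alx, Barx, Barhl, Vax, Vsx, Meis, Pbx, Tlx, Isl and Pou families and the family of Six2, and not by any measured value. Dlx1as and Lhx1os, non-coding transcripts named after a neighbouring homeobox gene, share these symbols and were kept. They held 1681 of the 203645 measured promoter cytosines and were 51 of the 9224 genes with a measured promoter. Cytosines within 1 kb upstream of a listed transcription start counted as promoter cytosines. All 8 GS cell lines came from F1 mice labelled B6 and were sequenced once each. The 4 control-F1 lines (29, 37, 44 and 45) came from mice born after natural mating, and the 4 ICSI-F1 lines (11, 17, 20 and 21) from mice born after intracytoplasmic sperm injection (ICSI), in which a sperm is injected into the egg. The paper calls the sperm used for ICSI wild type and took it from green mice, which express an Egfp transgene. Whether the lines carry this transgene was not checked here. The lines grew from CD9-selected spermatogonia of mature testes in a medium with GDNF and FGF2, so they stand for cultured stem cell-enriched spermatogonia rather than for the whole testis. The line numbers match those of different F1 mice in the paper's supplement, and p-values measure only the spread between these lines.

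Homeobox genes encode transcription factors that bind DNA through a homeodomain and set the identity of cells in the embryo, in organs such as the eye, the brain, the limb and the pancreas. Most of their promoters lie in CpG islands, which are usually unmethylated in normal cells, also where the gene is silent, and many are held silent by Polycomb proteins instead. Male germ cells pass such promoters to the next generation through sperm, which is why their methylation in spermatogonia is of interest in a study of inherited effects.

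Methylation was measured by reduced representation bisulfite sequencing, in which the enzyme MspI cuts DNA at CCGG, the fragments are ligated to adaptors, and bisulfite turns unmethylated cytosines into bases that are read as T. The level of a cytosine is the percentage of its reads that still show C, with the 2 strands of a CpG counted apart. Among the homeobox cytosines the median coverage of a line was 72 to 86 scaled reads, with 10 to 242 reads at single cytosines. Limits derived from read numbers cover counting error only, because PCR copies were not marked. The labels were filled in differently for lines 29, 37, 11 and 17 (library set 1) and for lines 44, 45, 20 and 21 (library set 2), and both sets hold 2 lines of each group. The germ cell label was not checked by expression, since RNA data were not used here. In the promoters of the 9 measured of 14 listed germ cell genes, the cytosines outside CCGG averaged 3.97% for control-F1 and 3.41% for ICSI-F1. Of the 9 promoters 7 lay under 5%, and Taf7l was the highest, at 5.64% with 1 such cytosine. Ddx4, an RNA helicase of germ cells, had 3.6% and Dazl, a germ cell RNA-binding protein, 2.62%. The homeobox cytosines outside CCGG averaged 2.51%, so a low level does not tell the cell type.

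Of the 1681 homeobox cytosines, 1433 lay in CpG islands, 240 in the shores beside them, 6 in shelves and 2 farther out. The 1 kb upstream of the 51 starts had a median of 45 CpGs and 5 CCGG sites, against 31 CpGs and 3 CCGG sites for the other promoters. A median of 28.1% of these CpG cytosines was measured per gene, from 0.658% for Lhx1os to 77.0% for Pou4f1. Barhl2 had the most measured cytosines (143), followed by Isl1 (112), Nkx1-1 (99), Pou4f1 (97) and Meis1 (96). At least 5 were measured for 46 genes. The remaining 5 genes had 1 to 4, among them Pou3f4 with 4, Dlx3 with 3, and Lhx1os and Nkx3-2 with 1 each.

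Almost all homeobox cytosines had a low level, and every one of the 120 with a mean of 20% or more over the 8 lines was the inner cytosine of a CCGG, the place where MspI cuts. Only 273 of the 1681 cytosines lay in CCGG, and their mean was 22.3%. The 1408 others averaged 2.51%, and the highest of them reached 17.7%. A set of 8 MspI fragments of the reference, ending in high cytosines of their genes, is printed here, because their highest cytosines sat at the ends, on one strand of a CpG, while the cytosines between the ends were low. Capitals mark the CCGG at each end, the sequence is the + strand of GRCm38 (mm10), and the inner C of each CCGG is the measured one on the + strand.
Gbx2, chr1:89931601-89931731: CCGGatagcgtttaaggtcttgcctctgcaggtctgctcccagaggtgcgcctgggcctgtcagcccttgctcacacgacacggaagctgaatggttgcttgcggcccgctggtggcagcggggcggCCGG
Dlx2, chr2:71546876-71547006: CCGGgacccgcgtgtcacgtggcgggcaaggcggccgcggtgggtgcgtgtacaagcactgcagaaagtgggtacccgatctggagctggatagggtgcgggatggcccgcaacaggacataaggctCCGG
Lhx2, chr2:38339099-38339137: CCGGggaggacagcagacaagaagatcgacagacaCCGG
Otx1, chr11:22003519-22003602: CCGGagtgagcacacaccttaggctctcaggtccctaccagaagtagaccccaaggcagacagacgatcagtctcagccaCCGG
Irx6, chr8:92673496-92673617: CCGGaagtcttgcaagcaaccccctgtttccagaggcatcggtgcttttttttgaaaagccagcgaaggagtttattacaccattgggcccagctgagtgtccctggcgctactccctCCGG
Irx5, chr8:92357225-92357290: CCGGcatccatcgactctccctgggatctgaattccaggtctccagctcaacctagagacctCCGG
Tlx2, chr6:83070576-83070604: CCGGcctccgccttcggactggctcCCGG
Nkx6-2, chr7:139582926-139582974: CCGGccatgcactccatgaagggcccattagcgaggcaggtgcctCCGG
No GENCODE gene overlaps 7 of these fragments, and the Gbx2 fragment lies in an exon of the non-coding gene D130058E05Rik on the + strand.

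Gbx2, which patterns the border of midbrain and hindbrain, shows the arrangement most clearly. At its fragment's left end the − strand cytosine had 99.5% and the + strand cytosine of the same CpG 4.01%. At the right end the + strand cytosine had 96.7% and the − strand cytosine 3.14%. The 16 cytosines measured between the ends averaged 2.37%, none above 4.4%. In Lhx2, a LIM homeobox gene of the developing eye and forebrain, the − strand at the left end had 97.1%, the + strand of that CpG 4.34%, and the 2 cytosines between the ends averaged 2.18%. This held in each line, as the high Lhx2 cytosine had 93.9%, 100.0%, 100.0% and 100.0% in control-F1 lines 29, 37, 44 and 45, and 90.6%, 100.0%, 92.6% and 100.0% in ICSI-F1 lines 11, 17, 20 and 21.

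In each of the other fragments, too, the highest end had a high and a low strand where both were measured. In Dlx2, a gene of the forebrain and jaw, the right end had 97.0% on the + strand and 4.36% on the − strand, with 2.47% over the 22 cytosines between. In Otx1, a gene of the forebrain and inner ear, the left end had 97.8% on the − strand and 8.97% on the + strand, and the right end 36.9% on the + strand and 7.71% on the − strand. Irx5, a gene of heart and retina, had 71.1% on the − strand of the left end and 69.5% on the + strand of the right end, and 0.902% over the 2 cytosines between. Irx6 had 61.1% and 86.4% at these places, and 3.61% over 6 cytosines between. Tlx2, a gene of the enteric nervous system, had 84.5% on the + strand of its right end, and Nkx6-2, a gene of ventral neural tube and oligodendrocytes, had 82.5% there. Their left ends did not follow the same form, with 24.3% on the + strand and 4.80% on the − strand of Tlx2, and 24.9% and 42.5% in Nkx6-2. The cytosines between the ends averaged 1.11% in Tlx2 and 2.19% in Nkx6-2. Meis2, a partner of Hox proteins, held the highest homeobox cytosine of all, at 99.7% on the + strand of a CCGG 23 bp upstream of its start, with 8.13% on the other strand.

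Across all homeobox promoters the level of a CCGG cytosine followed the lengths of the MspI fragments beside it. A cytosine forms the 3′ end of one fragment on its own strand, and 167 of the 273 formed the 3′ end of a fragment of 20 to 150 bp, where 150 bp is the read length. These averaged 32.8% and 117 of them (70.1%) reached 20%. The 94 that formed only the 5′ end of such a fragment averaged 5.05%, and 1 of them reached 20%. The other promoters gave 36.9% over 19314 cytosines and 11.6% over 12426. Where just one strand of a homeobox CCGG formed such a 3′ end, that strand was the higher one in 39 of 39 pairs, with a mean of 59.3% against 5.25% on the other strand. CpGs outside CCGG showed no such gap, with a median difference of 1.27 percentage points between the strands of 584 CpGs.

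**Figure D1:**
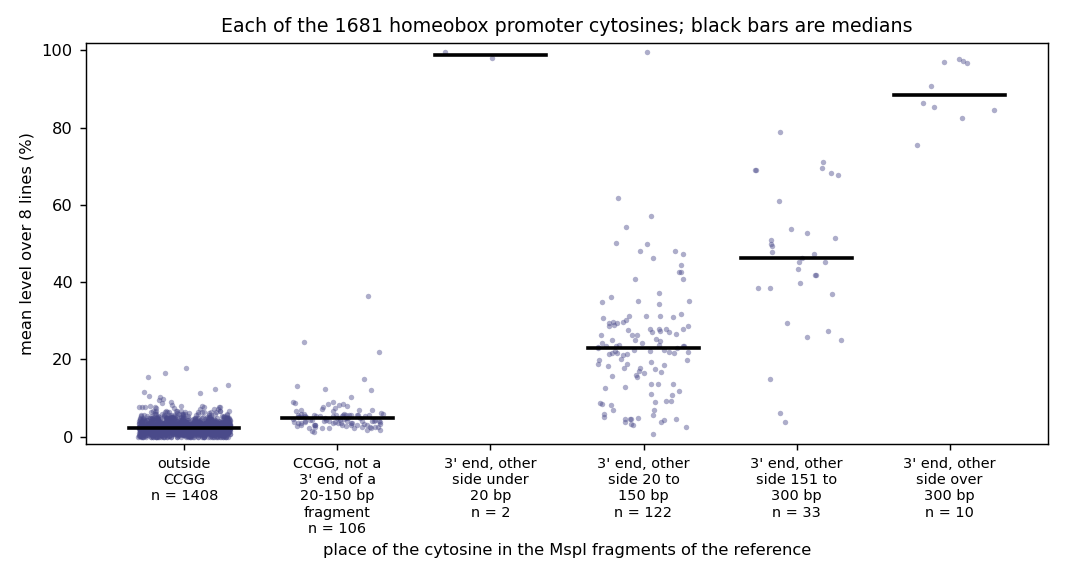
Mean level over the 8 lines (vertical axis, %) of each of the 1681 homeobox promoter cytosines, one point each, by its place in the MspI fragments of the reference (horizontal axis). Black bars are medians, and the cytosines outside CCGG reach at most 17.7% while the 10 at the 3′ end of a 20 to 150 bp fragment with over 300 bp on the other side lie between 75.6% and 97.8%.

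The level also rose with the length of the fragment on the other side of the cut. With 20 to 150 bp on that side, the 122 cytosines at such a 3′ end averaged 23.7%. With more than 150 and up to 300 bp the 33 cytosines averaged 45.7%, and with over 300 bp the 10 averaged 89.4%. The 2 with under 20 bp on that side, in Gbx2 and Barhl2, did not follow this order, at 99.5% and 98.1%. The other promoters gave 25.6%, 51.5% and 88.7% in these classes. Control-F1 line 37 had the lowest homeobox value in the last 2 classes, at 22.6% and 68.7%, while the other 7 lines had 36% to 59.7% and 84.8% to 97.6%. Over all CCGG cytosines of the other promoters, line 37 was also the lowest line, at 22.9%. Among the 46 promoters with 5 or more cytosines, the mean level rose with the percentage of cytosines in CCGG (Spearman's rho 0.640, Pearson's r 0.777). This partly follows from how the mean is formed, because the higher CCGG cytosines enter it. The level outside CCGG gave a rho of 0.282 and an r of 0.408 against the same percentage. Both are descriptions across promoters that share the libraries. The cut ends of RRBS fragments are filled in by a polymerase during library preparation, so that a cytosine read at a 3′ end can be a base added in the laboratory, and its level then need not be that of the cells. The authors trimmed reads in an RRBS mode, and whether added bases remained in the deposited values was not tested. The values printed for CCGG cytosines were read at MspI cut sites, and whether any of them are of this kind was not tested. Levels below are therefore given both over all cytosines and outside CCGG, a separation chosen after the data had been seen.

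The promoters with the highest levels over all cytosines were those of Lhx2 and Dlx1as, and, among promoters with 5 or more cytosines, 8 of the 10 highest averaged under 5% outside CCGG. Lhx2 averaged 21.7% with 3 of its 5 cytosines in CCGG, and 2.18% outside CCGG. Meis2 averaged 13.9% and 3.86% outside CCGG, Irx6 12.8% and 3.23%, Pax7 10.9% and 4.09%, and Irx5 10.4% and 3.24%. Emx1, a gene of the developing cerebral cortex, averaged 10.6% and 2.73%, Otx1 9.01% and 3.43%, and Tlx2 8.17% and 2.83%. Dlx1as and Alx4, with 21.5% and 14.5% over all cytosines, were the second and the third highest on this scale and the highest outside CCGG. At the other end, Gbx1 averaged 1.5% over 11 cytosines, of which 1 was in CCGG, and Pou4f1 2.80% over 97, of which 9 were.

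**Figure D2:**
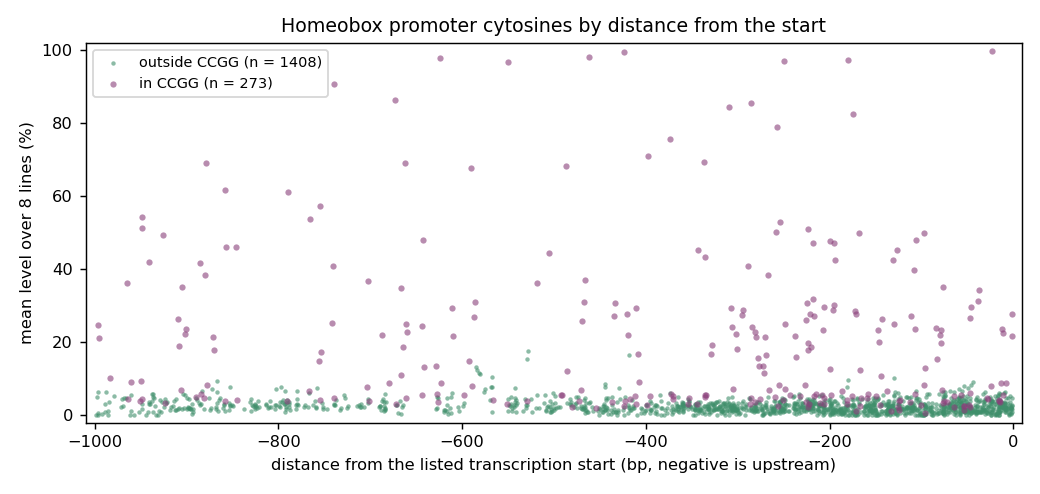
Mean level over the 8 lines (vertical axis, %) of each homeobox promoter cytosine against its distance from the listed transcription start (horizontal axis, bp). Cytosines in CCGG (purple, n = 273) reach high levels at every distance, and those outside CCGG (green, n = 1408) stay low throughout.

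Outside CCGG, 46 of the 48 homeobox promoters with such a cytosine averaged under 5% over the 8 lines, and 33 averaged under 3%. Dlx1as had the highest mean, 9.79%, followed by Alx4 with 7.24%, Pax7 with 4.09% and Pbx3 and Pou3f4 with 3.89% each. Among promoters with 5 or more cytosines outside CCGG the median was 2.71% for 44 homeobox genes and 2.19% for all promoters, and 95.5% of the former and 92.2% of the latter lay under 5%. None of the 44 homeobox promoters reached 10%, as 4.96% of all promoters did. At the single-cytosine scale, 0 of 1408 homeobox cytosines reached 20%, against 2.01% of 167433 in the other promoters. Within CpG islands the homeobox cytosines outside CCGG averaged 2.32% and those of the other promoters 2.09%, and 0.0586% of the latter reached 20%.

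Methylation above the general low level outside CCGG was seen in short stretches of Alx4 and Dlx1as, which are printed because they hold 7 of the 9 homeobox cytosines outside CCGG that reached 10%. The others lay in Pax2 and Pax7. Alx4 encodes a paired-type homeodomain protein of limb and skull. Dlx1as is transcribed opposite to Dlx1. Capitals mark the CpGs that hold a cytosine outside CCGG with a mean of 10% or more, and the sequence is again the + strand of GRCm38.
Alx4, chr2:93641835-93641986: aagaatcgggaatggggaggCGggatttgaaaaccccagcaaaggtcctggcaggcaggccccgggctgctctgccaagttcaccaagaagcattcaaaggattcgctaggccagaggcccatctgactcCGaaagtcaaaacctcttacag
Dlx1as, chr2:71538452-71538496: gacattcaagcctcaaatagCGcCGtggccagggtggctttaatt
Neither stretch overlaps a GENCODE gene. In Alx4 the left CpG had 15.5% on the + strand and 17.7% on the − strand, 529 and 528 bp upstream of the start in an island shore. The − strand cytosine of that CpG had 12.9%, 26.8%, 26.7% and 8.80% in control-F1 lines 29, 37, 44 and 45, and 9.09%, 17.3%, 14.4% and 25.3% in ICSI-F1 lines 11, 17, 20 and 21. The right CpG of Alx4, 418 bp upstream, had 16.5% on the − strand. The 4 cytosines of the Dlx1as pair of CpGs had 11.3%, 11.6%, 12.4% and 13.3%, in an island shelf 581 to 585 bp upstream.

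All 4 of these Dlx1as cytosines were at 0 in control-F1 line 29. At position 71538475 the control-F1 lines 29, 37, 44 and 45 had 0%, 6.67%, 12.9% and 4.76%, and the ICSI-F1 lines 11, 17, 20 and 21 had 10.3%, 21.7%, 28.7% and 14.7%. The 2 groups overlapped, and the difference of 12.8 percentage points was the largest of any homeobox cytosine outside CCGG. It did not pass the test (moderated logistic model over all sites, Benjamini-Hochberg adjusted p = 0.702). Dlx1as also held 2 of the 3 CCGG cytosines that reached 20% without being the 3′ end of a 20 to 150 bp fragment, at 36.3% and 21.9%. The third lay in Alx4, at 24.5%. Cytosines this close are read from the same fragments and are not independent.

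Grouped by role, the median promoter outside CCGG lay between 2.22% and 3.86% in each of the 6 lists, which share some genes. The 10 measured of 16 listed eye genes averaged 2.54% ± 1.03 (SD, n = 4) for control-F1 and 1.91% ± 1.1 for ICSI-F1, and all 10 promoters lay under 5%. In this list Barhl2, which acts in retinal and other neurons, had 2.28% ± 1.32 for control-F1 and 2.08% ± 1.54 for ICSI-F1 over 123 cytosines. Isl1, a LIM homeobox gene of retina, motor neurons and heart, had 2.51% ± 1.19 and 1.85% ± 1.07 over 103 cytosines. Pou4f1, a POU factor of sensory neurons, was lower, with 1.76% ± 0.953 and 1.1% ± 0.544 over 88 cytosines, and Pax2, a paired-box gene of eye, ear and kidney, had 3.19% ± 1.17 and 2.39% ± 1.39 over 62. The 19 measured of 41 listed genes of brain and spinal cord averaged 2.52% ± 0.909 and 2.25% ± 1.41, and all 19 lay under 5%.

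Limb, skeleton and face genes, 15 measured of 26 listed, had 2.91% ± 1.37 for control-F1 and 2.33% ± 1.41 for ICSI-F1. Of the 13 with a cytosine outside CCGG, 12 averaged under 5% and Alx4 did not. Six2, which keeps nephron progenitors and acts in the skull, had 3.75% ± 0.992 and 2.25% ± 1.32 over 71 cytosines. The 6 measured of 19 listed genes of heart, gut and endocrine organs averaged 2.50% ± 0.523 and 2.06% ± 1.44. Here Nkx2-3, a gene of gut and spleen, had 2.72% ± 1.96 and 3.33% ± 3.90, with ICSI-F1 line 11 at 0, where a count of 0 allows up to 0.556%. Irx4, a gene of the heart ventricle, had 2.47% ± 2.77 and 2.66% ± 2.22.

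From the list of 9 germ cell and gonad genes, Six4, which acts in gonad development, had 3.11% ± 2.87 for control-F1 and 1.35% ± 1.4 for ICSI-F1. The Six4 value of control-F1 line 29 was 6.89%, above the 0% to 3.30% of the other 7 lines. The TALE cofactors Meis1, Meis2 and Pbx3 form complexes with Hox proteins on DNA. Outside CCGG, Meis1 had 2.48% ± 1.83 and 1.87% ± 1.60 over 80 cytosines, Meis2 had 4.33% ± 4.38 and 3.39% ± 2.75 over 8, and Pbx3 had 4.15% ± 1.35 and 3.64% ± 3.99 over 13. The control-F1 and ICSI-F1 lines overlapped in every list.

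**Figure D3:**
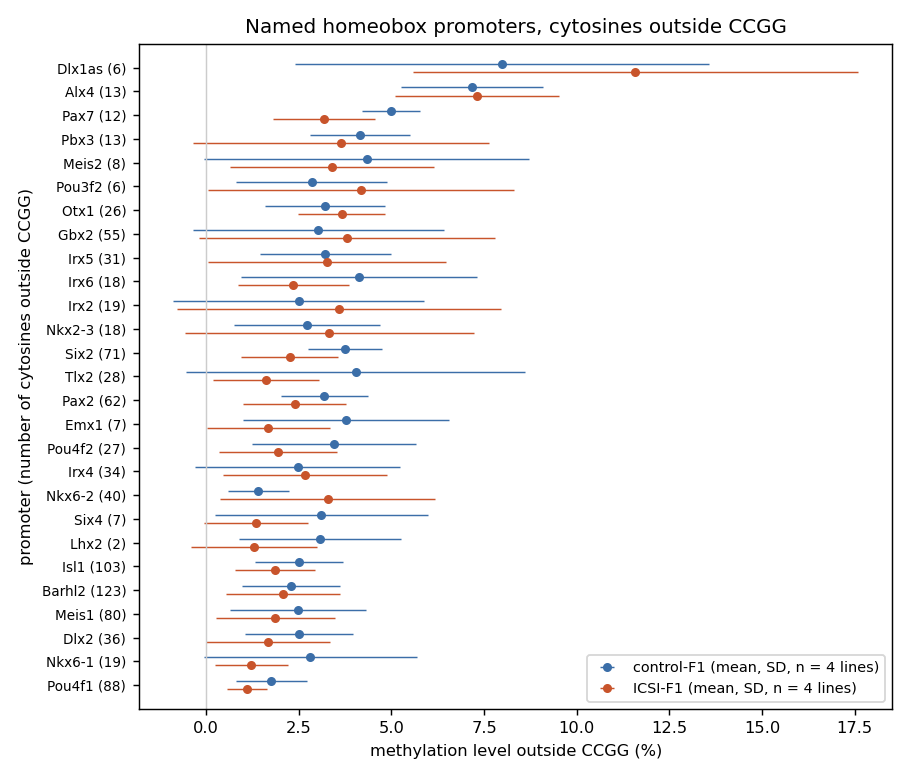
Methylation level outside CCGG (horizontal axis, %) of the 27 homeobox promoters named by the selection rule (vertical axis, number of cytosines in brackets). Points are means of the 4 control-F1 (blue) and 4 ICSI-F1 lines (orange) and bars are SDs, and only Dlx1as and Alx4 average over 5%.

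Other homeobox genes, which the symbol pattern did not match, mostly had low levels as well. Of 35 measured, 34 had cytosines outside CCGG and 29 of these averaged under 5%, with a median of 2.66%. They included Lmx1a at 2.09%, Hhex at 2.35% and En1 at 2.61%. Sebox, a homeobox gene expressed in oocytes, stood apart at 51.9% over 4 cytosines, and Dbx1 had 7.70% over 38. Rhox9 had 9.49% over 5, Esx1 6.39% over 2 and Tgif1 5.34% over 6. Among the 833 cytosines outside CCGG of this list 7 reached 20%, against 0 of 1408 in the matched families. No homeobox promoter of the matched families came near the Sebox value.

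The 8 lines differed in their general level, and the difference lay between the library sets. Outside CCGG the homeobox cytosines averaged 1.33% and 1.89% in control-F1 lines 29 and 37, 3.82% and 3.69% in control-F1 lines 44 and 45, 0.845% and 1.41% in ICSI-F1 lines 11 and 17, and 3.75% and 3.35% in ICSI-F1 lines 20 and 21. Every line of set 2 lay above every line of set 1, by 2.28 percentage points in the mean, and the other promoters had 2.73% in set 1 and 4.67% in set 2. All 4 lines of set 2 lay above all 4 lines of set 1 in 20 of 46 homeobox promoters, against 33.4% of all promoters, and in 15 of 44 outside CCGG, against 28.5%. The share of homeobox cytosines outside CCGG without any methylated read was 70.4% to 80.6% in set 1 and 39.1% to 46.7% in set 2. What separates the sets in the laboratory is not given in the sources used here.

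Gbx2 is an example of a promoter in which all lines of set 2 lay above all of set 1, by unequal amounts. Outside CCGG it had 0.607%, 1.33%, 8.01% and 2.17% in control-F1 lines 29, 37, 44 and 45, and 0.455%, 0.761%, 8.90% and 5.06% in ICSI-F1 lines 11, 17, 20 and 21. Irx2, an Iroquois gene of the neural plate with no CCGG cytosine among its 19, had 0%, 1.09%, 7.49% and 1.39% in the control-F1 lines and 1.28%, 2.43%, 0.551% and 10.0% in the ICSI-F1 lines in the same order. Its 2 high lines, 44 and 21, belonged to set 2 and to different groups.

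**Figure D4:**
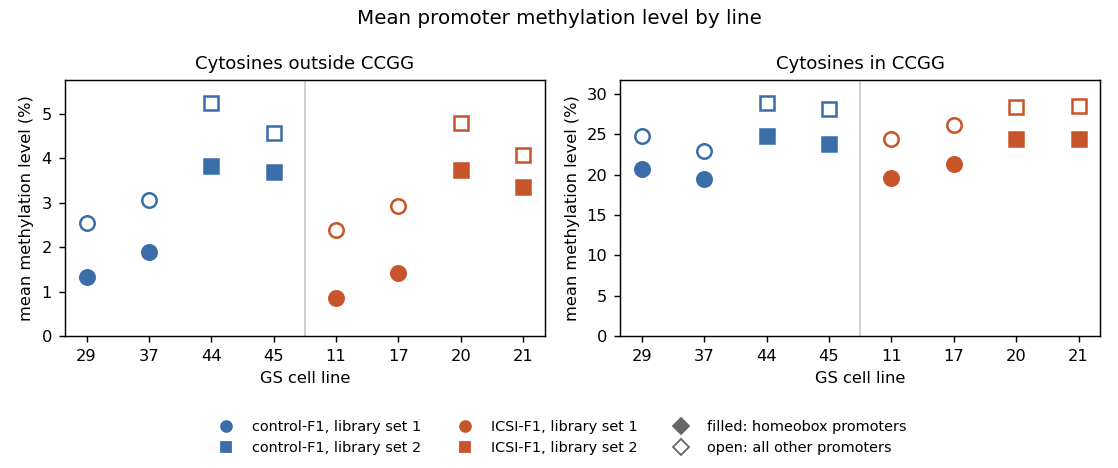
Mean methylation level (vertical axis, %) of the homeobox cytosines (filled) and of the other promoters (open) in each line (horizontal axis), outside CCGG on the left and in CCGG on the right. Circles are library set 1 and squares library set 2, and squares lie above circles in both groups.

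The design compares ICSI-F1 with control-F1 GS cells, to ask whether ICSI left a mark on promoter methylation in the germline of the offspring. Averaged over all 1681 homeobox cytosines, the control-F1 lines 29, 37, 44 and 45 had 4.48%, 4.74%, 7.23% and 6.96%, and the ICSI-F1 lines 11, 17, 20 and 21 had 3.89%, 4.64%, 7.09% and 6.76%. The means of 5.85% ± 1.44 (SD, n = 4) for control-F1 and 5.60% ± 1.57 (SD, n = 4) for ICSI-F1 lay closer together than the lines of either group. Their difference of −0.253 percentage points was −0.340 within set 1 and −0.167 within set 2, and its sign turned without line 11, 17, 44 or 45, up to 0.314 without line 11. Outside CCGG the means were 2.68% ± 1.26 and 2.34% ± 1.42, and in CCGG 22.2% ± 2.52 and 22.4% ± 2.35.

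No homeobox promoter differed between the groups by the tests used. In data simulated without a difference between library sets, the limma test recovered 22% of promoters shifted by 5 percentage points and 0% of those shifted by 2. Of 46 promoters with 5 or more cytosines, 0 passed an adjusted p of 0.05 (limma on arcsine-transformed levels, Benjamini-Hochberg over 7278 promoters), as 0% of all promoters did, and 0 had an unadjusted p under 0.05, as 2.32% of all promoters had. This fit left out the library set, which adds to the spread within groups. With the set as a covariate in limma, 0 of the 46 had an unadjusted p under 0.05. Of all 7278 promoters, 142 were then higher and 229 lower in ICSI-F1 at that limit, and 0 passed the adjusted p. The groups overlapped in all 46 and in all 44 outside CCGG, while 1.17% and 1.22% of all promoters had groups that did not overlap. The ICSI-F1 mean was the lower one in 31 of 46 homeobox promoters, where 57.1% of all promoters were lower, and the higher one in 15, where 42.9% were higher. Outside CCGG it was lower in 30 of 44 and higher in 14, against 64% and 36% of all promoters. There, too, 0 of 44 passed the adjusted or the unadjusted limma p of 0.05, as 0% and 2.36% of all promoters did. The median difference was −0.529 percentage points for the homeobox promoters and −0.186 for all. In 20 of the 46 the sign of the difference was not the same within the 2 library sets, as in 49.1% of all promoters. In 10 the ICSI-F1 mean was higher in both sets, against 20.8% of all promoters, and in 16 lower in both, against 29.8%.

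Among promoters with 5 or more cytosines the largest positive differences were those of Dlx1as, Nkx6-2, Pou3f2, Irx2 and Gbx2. Over its 12 cytosines Dlx1as had 11.8%, 22.7%, 22.6% and 20.3% in control-F1 lines 29, 37, 44 and 45, and 17%, 25.3%, 29.7% and 22.7% in ICSI-F1 lines 11, 17, 20 and 21. Line 29 was the lowest and line 20 the highest, and the others overlapped. The difference was 4.33 percentage points (limma, unadjusted p = 0.233, adjusted p above 0.99) and 1.81 without line 29. Nkx6-2 had 4.70%, 5.54%, 7.18% and 6.31% in the control-F1 lines and 5.03%, 6.67%, 9.14% and 11.2% in the ICSI-F1 lines, a difference of 2.08 that was 0.727 within set 1, 3.43 within set 2 and 1.01 without line 21. The highest values came from both ICSI-F1 lines of set 2. Pou3f2, a POU factor of neurons, had 2.39% ± 1.62 and 4.27% ± 3.10 over 8 cytosines. Its difference of 1.88 was 0.906 without line 20 and 3.31 without line 17. Those of Irx2 and Gbx2, 1.08 and 1.07, changed sign without line 21 and line 20, to −1.07 and −0.582. Lhx1os, with a single cytosine that lies in CCGG, had 3.74%, 0%, 0% and 2.86% in the control-F1 lines and 4.05%, 18.2%, 9.43% and 6.25% in the ICSI-F1 lines. Its groups did not overlap, and the difference was 7.83 (unadjusted p = 0.00840 and adjusted p of 1 in the limma fit without a minimum of cytosines, where 3.14% of all promoters had an unadjusted p under 0.05).

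Among the largest negative differences in such promoters were those of Tlx2, Nkx6-1, Pou4f2 and Six4. Tlx2 had 6.94%, 3.85%, 11.8% and 14.4% in control-F1 lines 29, 37, 44 and 45, and 5.57%, 6.09%, 8.73% and 8.0% in ICSI-F1 lines 11, 17, 20 and 21. Its difference of −2.15 percentage points was 0.434 within set 1, −4.74 within set 2, −3.95 without line 37 and −0.425 without line 45, and its highest values were those of control-F1 lines 44 and 45. Nkx6-1, a gene of pancreatic beta cells and motor neurons, had 5.12% ± 2.21 for control-F1 and 3.44% ± 1.71 for ICSI-F1, a difference of −1.68 that was −0.758 without line 37. The difference of Six4, −1.61, was −0.247 without line 29. Pou4f2, a POU factor of retinal ganglion cells, had 8.51% ± 2.01 and 6.87% ± 1.94, and its difference was −1.64 within set 1, −1.63 within set 2 and −0.956 without line 45. None passed the test.

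**Figure D5:**
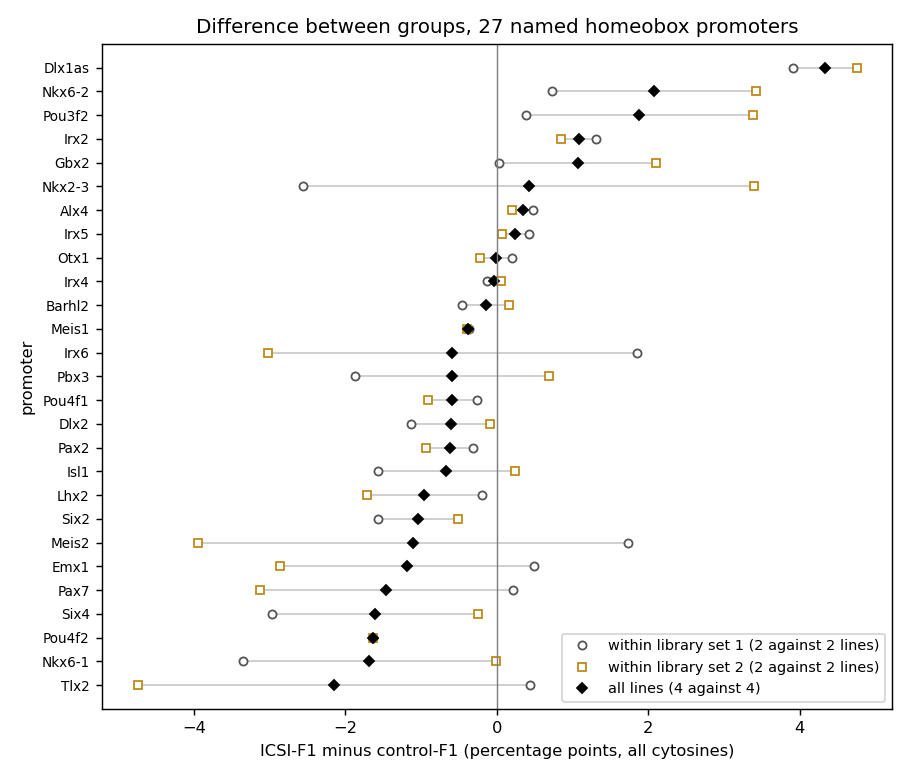
Difference in mean level, ICSI-F1 minus control-F1 (horizontal axis, percentage points), of the 27 homeobox promoters named by the selection rule (vertical axis). Black diamonds are all lines, open circles library set 1 and open squares library set 2, and for 11 promoters the 2 sets lie on different sides of 0.

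At single cytosines the study used a change of more than 20 percentage points and left out cytosines with a reversed change in a sample, read here as an ICSI-F1 line on the far side of the control-F1 mean. By this reading 0 of 1681 homeobox cytosines were hypermethylated and 0 hypomethylated, where 0.274% and 0.0506% of all promoter cytosines were, or 0.324% in either direction. Read more strictly, with every ICSI-F1 line beyond every control-F1 line, the rule again called 0, against 0.0673% and 0.00884% of all. The shares that the paper reports, over a larger set of covered CpG sites, lie near those of the stricter reading and well below those of the first. With a threshold of 10 percentage points, 4 homeobox cytosines lay past it as higher (0.841% of all) and 4 as lower (0.519% of all). The moderated logistic model called 0 of the 1624 homeobox cytosines with reads of both kinds at an adjusted p of 0.05, with 0 of 196818 over all promoters. At an unadjusted p under 0.05 there were 91, against 7.06% of all cytosines tested, namely 29 higher (2.6% of all) and 62 lower (4.47% of all). Outside CCGG there were 76 of 1351, against 7.61%, namely 20 higher (2.54% of all) and 56 lower (5.07% of all). With the library set as a covariate there were 219 of 1624, against 15.4% of all, and still 0 at an adjusted p of 0.05. A limma fit on log2 ratios of methylated to unmethylated reads, with 1 read added to each, also called 0 of 1681, with 34 at an unadjusted p under 0.05, against 3.6% of all. Groups that did not overlap were found at 13 of 1681 homeobox cytosines (0.773%), against 1.11% of all.

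The 3 largest increases of single cytosines were all in CCGG, and control-F1 line 37 was the lowest line in each. Nkx6-2 at position 139582972 had 78.3%, 25.0%, 100.0% and 87.5% in control-F1 lines 29, 37, 44 and 45, and 86.4%, 96.4%, 95.2% and 91.4% in ICSI-F1 lines 11, 17, 20 and 21. Its difference was 19.7 percentage points and 3.78 without line 37. Irx6 at position 92673615 had 75.0%, 39.3%, 100.0% and 94.9% against 94.1%, 94.7%, 100.0% and 92.9%, a difference of 18.1 that was 5.47 without line 37. Meis1 at position 19019184 had 34.9%, 11.4%, 45% and 60.3% against 47.5%, 37.5%, 70.7% and 74.1%, and its 19.5 became 10.7. The adjusted p was 0.702, 0.706 and 0.702. The 10 homeobox cytosines with over 300 bp on the other side of the cut include these Nkx6-2 and Irx6 cytosines. Over the 10, line 37 was the lowest line, and the group difference was 6.53 percentage points with it and 0.709 without it. In the other promoters the same class gave 5.10 with line 37 and −0.0236 without it.

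The largest decreases were seen in Pax7, a gene of neural crest and muscle stem cells, in Isl1 and at a further cytosine of Meis1. Pax7 at position 139834120 had 2.13%, 44.6%, 30.8% and 16% in the control-F1 lines and 10.4%, 7.41%, 5.45% and 3.23% in the ICSI-F1 lines. The difference of −16.7 percentage points was −9.69 without line 37, and line 29 was the lowest of all lines (unadjusted p = 0.00776, adjusted p = 0.702, moderated logistic model). Isl1 at position 116309816 differed by −11.5, which was −20.9 without line 37 and −5.86 without line 45. Meis1 at position 19019490 differed by −11.5, which was −1.22 without line 37.

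Outside CCGG the changes were smaller. Only 3 homeobox cytosines (0.213% of 1408) differed by more than 10 percentage points, where 1.07% did in the other promoters. Besides Dlx1as these were Nkx6-2 at position 139582806, 9 bp upstream of its start, and Barhl1 at position 28916848. Nkx6-2 had 0%, 0%, 1.87% and 0% in control-F1 lines 29, 37, 44 and 45, and 0%, 3.09%, 36.4% and 10.8% in ICSI-F1 lines 11, 17, 20 and 21. Line 20 stood above the others, and the difference of 12.1 percentage points was 4.17 without it. Barhl1, a gene of cerebellum and inner ear, had 8.06%, 23.3%, 21.8% and 7.19% against 5.00%, 0%, 5.26% and 8.06%.

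Among the cytosines near 100%, Meis2 at position 116065862 had 100.0% in 7 lines and 97.3% in ICSI-F1 line 21. Gbx2 at position 89931603 had 100.0% in 7 lines and 96.3% in control-F1 line 29. At position 89931729 Gbx2 had 94%, 91.7%, 100.0% and 87.9% in the control-F1 lines and 100.0% in each ICSI-F1 line, a difference of 6.61 (unadjusted p = 0.0312, adjusted p = 0.702, moderated logistic model). Dlx2 at position 71547004 had 93.6%, 90.2%, 97.4% and 94.9% in the control-F1 lines and 100.0% in each ICSI-F1 line, with 22 to 47 reads, and these groups did not overlap (unadjusted p = 0.0337, adjusted p = 0.702, moderated logistic model).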

How the data were processed

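Genomic DNA of 8 GS cell lines was digested with MspI and sequenced as a Zymo-Seq RRBS library. According to the submitters' processing notes the authors used Trim Galore 0.5.0, Bismark 0.20.0 and methylKit 1.16.0 on mm10. The paper's supplement gives an earlier methylKit version. The authors scaled coverage between lines, kept cytosines with at least 10 reads in every line, did not merge strands, and took promoters as 1 kb upstream of Ensembl release 87 starts. Their deposited table holds a score per cytosine and line, namely scaled and rounded numbers of methylated and unmethylated reads, which are not raw counts. From these, the level of each cytosine was computed as methylated reads over both, and a promoter's level as the unweighted mean of its cytosines. CCGG sites and MspI fragment lengths were read from GRCm38 with pyfaidx 0.9.0.4, and overlapping genes from GENCODE. Promoters with at least 5 cytosines were compared with limma 3.58.1 (R 4.3.3) on arcsine square roots of the level, and cytosines with a quasi-binomial logistic model whose dispersion was moderated across cytosines. Both were fitted to all promoters of the table, with Benjamini-Hochberg adjustment over all of them, and were tested on simulated data. Of 50 changed promoters, limma recovered 0% at a shift of 2 percentage points, 22% at 5, 60% at 10 and 94% at 20. The logistic model recovered 46% of 50 changed cytosines at 20 percentage points and 94% at 30. It also placed 8.59% of unchanged cytosines under the unadjusted limit, against 4.96% of unchanged promoters for limma. Small shifts could therefore be missed. The simulated lines held no difference between library sets, unlike the real lines, so these rates need not hold for the real data. With 4 lines against 4, an exact permutation test allows no p below 0.0286. Genes named were those with the 10 highest promoter levels, the 5 largest increases, decreases and within-group SDs, the 3 largest single-cytosine changes in each direction, and up to 4 per list with the most cytosines. Others were named after their values were seen. All 51 genes and the gene lists were chosen with earlier results of these data known. Alternatives were other coverage minima, transformations, merged strands, each library set, the set as a covariate, each line left out, and leaving out CCGG cytosines, the last added after the data had been seen. Values of some single genes are not reported here. Homeobox genes of these families without a promoter cytosine in the table were not analysed here.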

Additional observations from a re-analysis of the deposited data

How the results depend on the processing

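No paired analysis was possible because the control-F1 and ICSI-F1 lines share no replicate numbers. No homeobox promoter passed the adjusted limma p of 0.05, and no homeobox cytosine passed that of the logistic model, under any alternative run for them, which included each line left out. Over all promoters the most calls were 80 of 155863 cytosines, with a minimum of 30 reads, and 1 of 7278 promoters, without line 20. At shares this small, a count of 0 does not set the homeobox genes apart. The mean difference stayed between −0.346 and −0.167 percentage points under 10 other settings, and between −0.752 and 0.314 when a line was left out. The rule of 20 percentage points, in the less strict of the readings above, called 0 homeobox cytosines. In that reading it called 8 with a threshold of 10 (1.36% of all cytosines) and 3 with means weighted by reads (0.481%). It called 6 within library set 1 (1.08%), 3 within set 2 (0.684%), and 0 to 4 when a line was left out (4 without line 44 or 45).

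Signs of promoter differences were less stable, and no homeobox promoter, with or without a sign change, passed the test. Within set 1 the difference became 0.485 for Emx1, 1.85 for Irx6, 1.73 for Meis2, −2.56 for Nkx2-3, 0.204 for Otx1, 0.207 for Pax7 and 0.434 for Tlx2. Within set 2 it became 0.157 for Barhl2, 0.0579 for Irx4, 0.239 for Isl1 and 0.690 for Pbx3. With pooled reads it became 0.0561 for Irx4, −1.23 for Irx5, 0.0379 for Meis1 and 0.588 for Pbx3, and with merged strands 0.129 for Irx4, −0.908 for Irx5 and 0.0775 for Pbx3. A minimum of 20 reads gave −0.0335 for Alx4 and 0.142 for Meis1, and leaving out CCGG gave 0.193 for Irx4 and 0.458 for Otx1. When a line was left out, 13 of 27 named promoters changed sign. Their ranges were −1.16 to 1.9 (Alx4), −0.724 to 0.452 (Barhl2), −2.70 to 0.513 (Emx1), −0.582 to 2.63 (Gbx2), −1.07 to 2.75 (Irx2), −0.807 to 1.38 (Irx4), −1.23 to 1.35 (Irx5), −2.36 to 1.36 (Irx6), −1.20 to 0.318 (Meis1), −2.59 to 0.386 (Meis2), −1.04 to 1.61 (Nkx2-3), −0.656 to 0.839 (Otx1) and −2.34 to 0.215 (Pbx3). The cause of these changes was not tested. With 10 to 242 scaled reads per cytosine and 4 lines per group, the precision at one cytosine was limited.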
